A study of Mus musculus with 6 samples.

Results

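The intestinal identity transcription factors examined here are 8 genes whose proteins set and keep the character of gut epithelium: Cdx1, Cdx2, Hnf4a, Hnf4g, Klf4, Klf5, Elf3 and Gata6. They were chosen by name, with no measured value in the rule, and are 8 of the 55487 genes listed. All 8 had reads and all 8 passed the filter on low counts, which kept 14650 genes. RNA-seq had been made from colon intestinal epithelial cells (IECs) in 6 libraries, 3 per genotype, and every mouse had received dextran sulphate sodium (DSS), which injures the colon lining. In Nsd2 f/f mice (labelled NSD2-FF, or WT in the titles) both alleles of the histone methyltransferase gene Nsd2 carried loxP sites and no Cre was present. In Nsd2 Vil-KO mice (labelled NSD2-FF-VILCRE) the same floxed alleles were combined with Cre under the Villin promoter, which acts in epithelial cells along the gut and not in the other cells of the tissue. Mice were littermates on a C57BL/6J background, and the methods put animals of the colitis experiments at 2 months of age. The labels do not state that the 3 libraries of a genotype came from separate animals, so every p-value below measures only the spread between these libraries. The day after DSS on which cells were taken for RNA-seq is not given in the sources used here. The question addressed was whether the genes that hold epithelial identity differed in level between IECs with and without Nsd2.

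Cdx1 and Cdx2 are homeobox factors of the caudal family. They mark intestine against stomach, and Cdx2 is needed to keep gut epithelium intestinal in the adult. HNF4A and HNF4G are nuclear receptors that bind many of the same sites and drive enterocyte genes, and HNF4A is linked to colitis risk. KLF4 and KLF5 are Kruppel-like zinc finger factors that recognise similar GC-rich letters, with KLF4 high in differentiated and goblet cells and KLF5 in dividing crypt cells. ELF3 is an epithelial ETS factor, and GATA6 is the GATA factor that the colon retains.

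None of the 8 factors passed the screening criterion of a fold change above 1.2 with an unadjusted p below 0.05, in either direction, by edgeR's quasi-likelihood test. Over all 14650 genes the criterion called 1.65% higher and 1.65% lower in Nsd2 Vil-KO. The count of members with a Benjamini-Hochberg adjusted p below 0.05 was 0, beside 0% of all genes by edgeR and 4 genes by DESeq2, and 0 members had an unadjusted p below 0.05 with either tool. The median log2 fold change of the 8 members, Nsd2 Vil-KO against Nsd2 f/f, was -0.06, against 0.00 for all tested genes. Fitted values were above 0 for 3 members and below 0 for 5. Cdx1 was the 1 member of 8 whose libraries did not overlap between genotypes, and it was lower in Nsd2 Vil-KO. Non-overlap of this kind was met in 4.7% of all tested genes in the lower direction and 5.21% in the higher. For single values an exact permutation test was added, which with 3 against 3 libraries cannot give a p below 0.1.

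**Figure D1:**
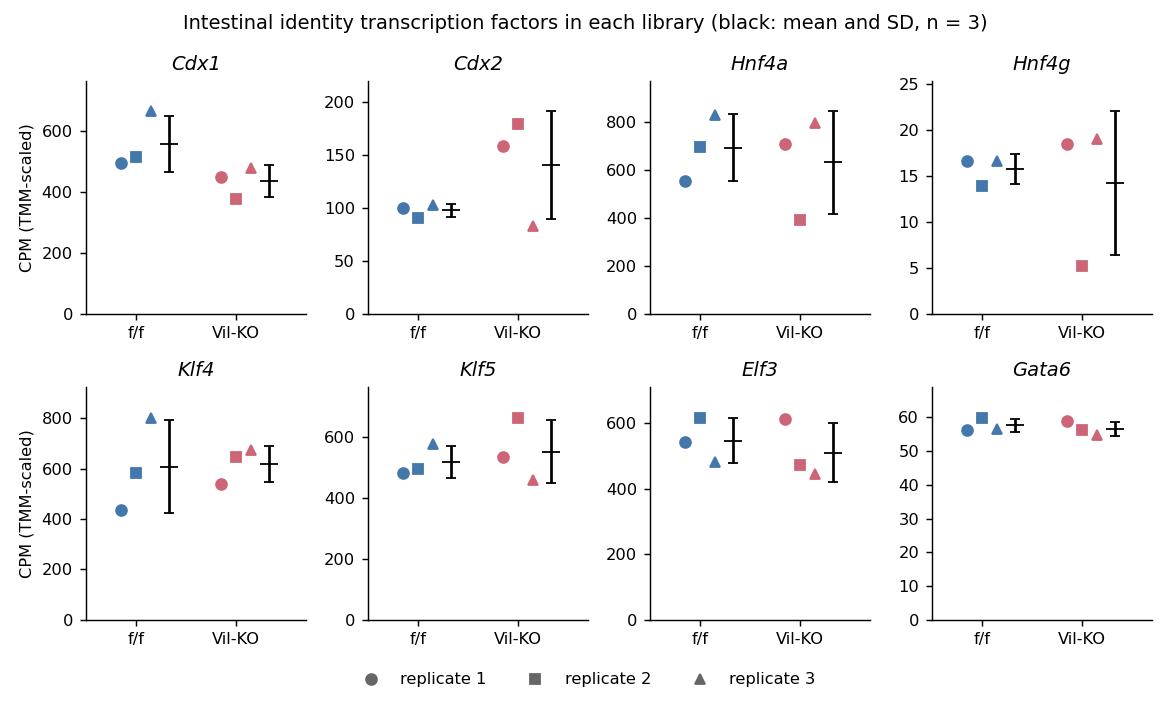
TMM-scaled CPM of each factor in the 3 Nsd2 f/f libraries (blue) and the 3 Nsd2 Vil-KO libraries (red), with symbol shape for the replicate number and the mean and SD (n = 3) in black; each panel has its own axis from 0. Cdx1 is the factor whose genotypes do not overlap, Cdx2 and Hnf4g spread widely in Nsd2 Vil-KO, and Gata6 stays between 54.7 and 60.0 CPM.

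Nsd2 itself, the gene that the Villin-Cre removes, checked the labels first. Levels are given as CPM, the share of a library’s reads scaled by TMM factors. Nsd2 stood in Nsd2 f/f at 47.9, 51.2 and 24.6 CPM and in Nsd2 Vil-KO at 24.2, 10.4 and 20.8 CPM, here and throughout in the order of replicates 1 to 3. All Nsd2 Vil-KO libraries lay below all Nsd2 f/f libraries, though the lowest Nsd2 f/f and the highest Nsd2 Vil-KO library were close. Scaled to library size alone, the groups overlapped, with Nsd2 f/f from 19.7 to 54.4 CPM and Nsd2 Vil-KO from 9.24 to 26.7 CPM. The fitted log2 fold change of Nsd2 was -1.16 (SE 0.39, n = 3 per genotype, edgeR adjusted p = 0.992). Nsd2 passed the screening criterion as lower in Nsd2 Vil-KO (edgeR unadjusted p = 0.022). Counts were summed over the whole gene, so transcripts from a recombined allele can still be counted.

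A pair of libraries stood apart from the rest. Xist, which is transcribed from an inactive X chromosome, was at 204 CPM in Nsd2 Vil-KO replicate 2 and 347 CPM in Nsd2 f/f replicate 3 and at no more than 0.255 CPM in the other 4. The 2 libraries also had the lowest mean rank correlations with the others (0.927 and 0.937, against at least 0.959), and mitochondrial genes took 19.6% of counts in Nsd2 f/f replicate 3 against 5.51% to 9.13% elsewhere. Each genotype held 1 of them. The 6 libraries held between 15439123 and 20350539 counts, so that members were counted at 93 reads or more in every library.

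Epithelial markers led the marker lists. The 10 epithelial markers, Epcam and Cdh1 among them, were all detected and summed to between 16299 and 26315 CPM in Nsd2 f/f and between 17760 and 26554 CPM in Nsd2 Vil-KO, and none passed the criterion. The 9 T cell markers summed to 15.3 to 43.6 CPM in Nsd2 f/f and 14.04 to 35.4 CPM in Nsd2 Vil-KO. Markers of B and plasma cells (9 genes) summed to 33.2 to 426 CPM in Nsd2 f/f and 55.9 to 572 CPM in Nsd2 Vil-KO, with the highest value in Nsd2 Vil-KO replicate 1. Markers of neutrophils and macrophages (11 genes) summed to 18.7 to 848 CPM in Nsd2 f/f and 62.9 to 1013 CPM in Nsd2 Vil-KO, with the highest value in Nsd2 Vil-KO replicate 2, where S100a8 (574 CPM) and S100a9 (405 CPM) made up most of it. Of these 11 genes, 9 were fitted lower in Nsd2 Vil-KO (the median on the log2 scale was -1.27) and 0 passed the criterion. Markers of fibroblasts (7 genes) reached 269.7 CPM in Nsd2 f/f replicate 1 and no more than 73.0 CPM elsewhere. Of these, 7 were fitted lower in Nsd2 Vil-KO and 0 higher (median log2 fold change -1.44), and 0 passed the criterion. Markers of smooth muscle (6 genes) summed to 2.18 to 20.6 CPM in Nsd2 f/f and 3.33 to 12.3 CPM in Nsd2 Vil-KO. There 6 were fitted lower and 0 higher (median -0.55), and 0 passed. No list had a marker at 0 in all libraries except the squamous list, with 4 of 10. The part of these cells in the members' values was not tested, and in bulk samples fewer cells of a type and less RNA per cell cannot be told apart.

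Per kb of exon the order of the members was the same in both genotypes. In Nsd2 f/f, Cdx1 had the highest mean level (319 CPM per kb), followed by Elf3 (247), Klf4 (199), Hnf4a (144), Klf5 (99.7), Cdx2 (43.1), Gata6 (8.85) and Hnf4g (5.98). Neighbours whose ranges overlapped in Nsd2 f/f were Elf3 and Klf4, which ranged from 217 to 279 and from 143 to 263 CPM per kb, and Klf4 and Hnf4a, with Hnf4a between 114 and 172 CPM per kb, although Klf4 lay above Hnf4a in 6 of 6 libraries. Cdx1 lay above Elf3 in 5 of 6 libraries, and Hnf4a above Klf5 in 5 of 6, the exceptions differing in library. Among the paralogs, Cdx1 was the higher of the CDX pair and Hnf4a the higher of the HNF4 pair in each of the 6 libraries, and so was Klf4 of the KLF pair.

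Sequences at the start sites are shown for 3 members, because they bear on what a count can separate and on which factor letters lie there. Cdx2 had the largest fitted difference of the 8. Hnf4a has 2 start regions in the table, about which the deposited count says nothing separately, since reads of transcripts from both starts are summed in 1 number. Klf4 held the CDX letters, which the other windows searched did not. Each window covers 250 bases before and 50 bases after the start, on the gene's strand, taken from RefSeq on GRCm38.p6. Capitals mark the letters searched on both strands: TTTAT for CDX, CAAAG for the HNF4 half-site, AGATAA for GATA, CACCC for KLF and AGGAAG for ETS factors.
Cdx2, chr5:147307200-147307499, minus strand: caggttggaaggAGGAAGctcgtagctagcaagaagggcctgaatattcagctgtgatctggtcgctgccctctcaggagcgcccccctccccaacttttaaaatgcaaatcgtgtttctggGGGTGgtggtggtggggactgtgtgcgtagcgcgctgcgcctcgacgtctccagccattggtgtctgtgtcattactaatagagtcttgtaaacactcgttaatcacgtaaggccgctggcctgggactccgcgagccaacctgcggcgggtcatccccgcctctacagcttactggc
Hnf4a upstream start, chr2:163506607-163506906, plus strand: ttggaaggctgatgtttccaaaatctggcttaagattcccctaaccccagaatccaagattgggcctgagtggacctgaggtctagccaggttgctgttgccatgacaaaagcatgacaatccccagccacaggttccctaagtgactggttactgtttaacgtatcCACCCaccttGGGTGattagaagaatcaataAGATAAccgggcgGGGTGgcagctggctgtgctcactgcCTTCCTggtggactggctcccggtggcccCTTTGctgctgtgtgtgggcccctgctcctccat
Hnf4a downstream start, chr2:163546905-163547204, plus strand: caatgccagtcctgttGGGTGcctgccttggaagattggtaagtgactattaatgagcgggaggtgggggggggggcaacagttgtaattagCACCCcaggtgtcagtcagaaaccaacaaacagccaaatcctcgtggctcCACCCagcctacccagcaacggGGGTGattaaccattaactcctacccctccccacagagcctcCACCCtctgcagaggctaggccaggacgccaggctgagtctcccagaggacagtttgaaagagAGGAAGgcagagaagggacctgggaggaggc
Klf4, chr4:55532426-55532725, minus strand: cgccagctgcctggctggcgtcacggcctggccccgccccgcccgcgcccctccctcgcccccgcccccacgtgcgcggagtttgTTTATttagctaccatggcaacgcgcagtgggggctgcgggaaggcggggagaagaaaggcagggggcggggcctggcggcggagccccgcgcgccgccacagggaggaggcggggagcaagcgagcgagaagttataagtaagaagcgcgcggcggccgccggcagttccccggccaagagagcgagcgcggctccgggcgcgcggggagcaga

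The Cdx2 window held 1 KLF match and 1 ETS match and no CDX, HNF4 or GATA letters. The upstream Hnf4a window held 3 KLF matches and 1 each for GATA, ETS and the HNF4 half-site, whereas the downstream window held 5 KLF matches and 1 ETS match. The Klf4 window held 1 CDX match and none of the others, and the window of Elf3, chr1:135258423-135258722 on the minus strand, held 2 KLF matches and 1 HNF4 half-site. Over the 32851 windows of 300 bases in the table, KLF letters occurred in 57.5%, the HNF4 half-site in 53.9%, CDX letters in 40.0%, ETS letters in 35.4% and GATA letters in 11.2%. These are matches of letters and not binding sites. Hnf4g and Klf5 had no window here, and no sequence is given for Cdx1 and Gata6.

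Cdx1, the caudal factor of the colon crypt and a gene of chromosome 18 (ENSMUSG00000024619, 61018862 to 61036199, minus strand, GRCm38), stood at 497, 515 and 665 CPM in Nsd2 f/f and at 449, 378 and 480.5 CPM in Nsd2 Vil-KO. The lowest Nsd2 f/f library was above the highest Nsd2 Vil-KO library, and Nsd2 f/f replicate 3 and Nsd2 Vil-KO replicate 2, the 2 libraries that stood apart, gave the extremes. Means were 559 ± 92.6 CPM in Nsd2 f/f and 436 ± 52.4 CPM in Nsd2 Vil-KO (SD, n = 3). The fitted log2 fold change was -0.36 (SE 0.22, 95% interval -0.89 to 0.17, edgeR adjusted p = 0.992). The exact permutation p was 0.1, the smallest that this design allows. Any gene whose groups do not overlap gets that value, so it restates the non-overlap. By the same permutation test p was 0.4 or more for each other member. Without Nsd2 f/f replicate 3 the log2 fold change was -0.21, and in the 4 libraries without both that stood apart it was -0.11 (edgeR adjusted p = 0.719, 2 against 2). Without TMM factors, scaled to library size alone, the groups again did not overlap, with Nsd2 f/f from 534 to 547 CPM and Nsd2 Vil-KO from 335 to 521 CPM.

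Cdx2, the caudal factor that defines intestine (ENSMUSG00000029646, chromosome 5, 147300800 to 147307270, minus strand), went the other way in the fit. It stood at 99.3, 90.7 and 102 CPM in Nsd2 f/f and at 158, 179 and 82.7 CPM in Nsd2 Vil-KO. In Nsd2 Vil-KO, replicates 1 and 2 were above every Nsd2 f/f library, whereas replicate 3 was below every one, so the groups overlapped. In the fit its log2 fold change was 0.52 (SE 0.29, 95% interval -0.17 to 1.21, edgeR adjusted p = 0.992), the largest in size of the 8. Without Nsd2 Vil-KO replicate 3 it was 0.79 (edgeR adjusted p = 0.995) and Cdx2 passed the screening criterion, so that this 1 library decided the call. Without Nsd2 Vil-KO replicate 2 the value was 0.31, and in the 4 libraries without both that stood apart 0.36. The SD of Cdx2 was 6.07 CPM in Nsd2 f/f and 50.8 CPM in Nsd2 Vil-KO.

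The ratio of Cdx1 to Cdx2 in a library does not depend on how libraries are scaled. On the log2 scale it was 2.32, 2.50 and 2.70 in Nsd2 f/f and 1.505, 1.08 and 2.54 in Nsd2 Vil-KO. Nsd2 Vil-KO replicates 1 and 2 lay below all Nsd2 f/f libraries and replicate 3 lay between 2 of them. The mean difference was -0.80 (exact permutation test, two-sided, p = 0.3, and p = 0.9 after adjustment over the 3 ratios examined), and in the 4 libraries without both that stood apart it was -0.39. Cdx4, the third caudal gene, had 0 counts in all 6 libraries, which allows up to 0.146 to 0.242 CPM by a limit of 3 counts.

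**Figure D2:**
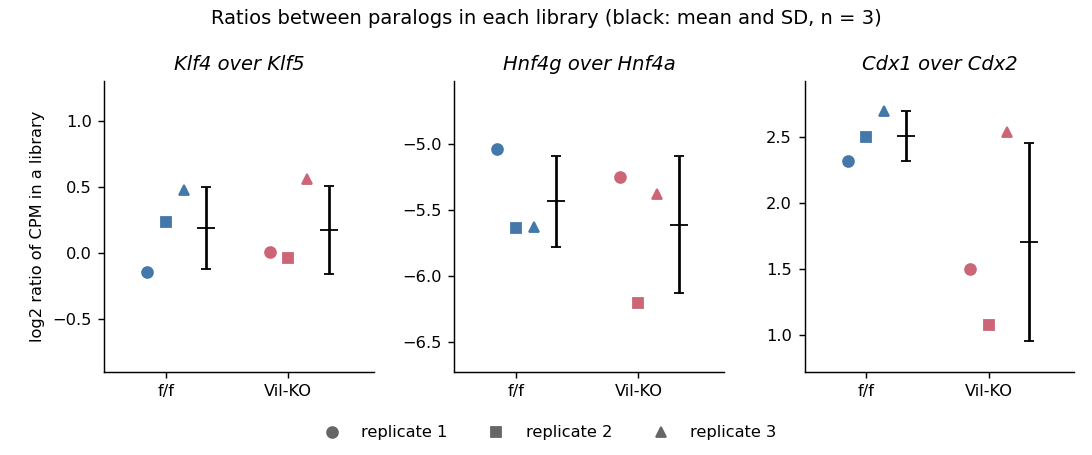
Log2 ratio of CPM of Klf4 over Klf5, Hnf4g over Hnf4a and Cdx1 over Cdx2 in each library, Nsd2 f/f in blue and Nsd2 Vil-KO in red, symbol shape for the replicate number and black bars for the mean and SD (n = 3); the 3 vertical axes span the same range. Cdx1 over Cdx2 is lower in Nsd2 Vil-KO replicates 1 and 2 and not in replicate 3.

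Hnf4a, the HNF4 receptor of gut and liver (ENSMUSG00000017950, chromosome 2, 163506810 to 163572910, plus strand), stood at 552, 697 and 829.7 CPM in Nsd2 f/f and at 706, 389.9 and 796 CPM in Nsd2 Vil-KO. In Nsd2 Vil-KO, replicates 1 and 3 were inside the Nsd2 f/f range and replicate 2 was the lowest of all 6. Hnf4a had a log2 fold change of -0.14 (SE 0.32, 95% interval -0.90 to 0.63, edgeR adjusted p = 0.996). Hnf4g, its paralog (ENSMUSG00000017688, chromosome 3, 3508030 to 3658052, plus strand), was at 16.6, 13.9 and 16.6 CPM in Nsd2 f/f and at 18.4, 5.16 and 19.0 CPM in Nsd2 Vil-KO. Its lowest value was again in Nsd2 Vil-KO replicate 2, and the other 2 libraries of that genotype were above every Nsd2 f/f library. Hnf4g had a log2 fold change of -0.15 (SE 0.46, 95% interval -1.24 to 0.95, edgeR adjusted p = 0.998). In the 4 libraries without both that stood apart, the values were 0.28 for Hnf4a and 0.30 for Hnf4g (edgeR adjusted p = 0.52 and adjusted p = 0.527, 2 against 2), so that the sign of both rested on the libraries left out. The log2 ratio of Hnf4g to Hnf4a differed by -0.18 between genotypes (exact permutation p = 0.8).

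Klf4, the factor of differentiated and goblet cells (ENSMUSG00000003032, chromosome 4, 55527143 to 55532466, minus strand), was at 435, 584 and 803 CPM in Nsd2 f/f and at 537, 646 and 675 CPM in Nsd2 Vil-KO. Both the lowest and the highest of the 6 libraries were Nsd2 f/f, and all Nsd2 Vil-KO libraries lay between them. Klf4 had a log2 fold change of 0.03 (SE 0.28, 95% interval -0.63 to 0.69, edgeR adjusted p = 0.999). Klf5, the factor of dividing crypt cells (ENSMUSG00000005148, chromosome 14, 99298691 to 99315036, plus strand), was at 481, 496 and 579 CPM in Nsd2 f/f and at 535, 664 and 458 CPM in Nsd2 Vil-KO. The Nsd2 Vil-KO libraries held the lowest and the highest value, with replicate 2 the highest. Klf5 had a log2 fold change of 0.09 (SE 0.23, 95% interval -0.45 to 0.63, edgeR adjusted p = 0.996). The log2 ratio of Klf4 to Klf5 was -0.14, 0.24 and 0.47 in Nsd2 f/f and 0.01, -0.04 and 0.56 in Nsd2 Vil-KO, a difference of -0.01 (exact permutation p = 1).

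Elf3, the epithelial ETS factor (ENSMUSG00000003051, chromosome 1, 135253580 to 135258570, minus strand), was at 544, 618 and 481 CPM in Nsd2 f/f and at 614, 472 and 446 CPM in Nsd2 Vil-KO. The groups overlapped, with 2 of 3 Nsd2 Vil-KO libraries below every Nsd2 f/f library. Elf3 had a log2 fold change of -0.10 (SE 0.23, 95% interval -0.64 to 0.44, edgeR adjusted p = 0.996). An antisense gene, Gm26642, overlaps 162 bases of its exons (7.31%), and since the counting is not stated to use strand, reads of the 2 cannot be told apart there. Its ETS relatives Ehf and Elf1 had log2 fold changes of -0.20 (95% interval -0.72 to 0.32) and -0.15 (95% interval -0.54 to 0.24). With 1 library left out the values ran from -0.35 to -0.049 for Ehf and from -0.23 to -0.088 for Elf1.

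**Figure D3:**
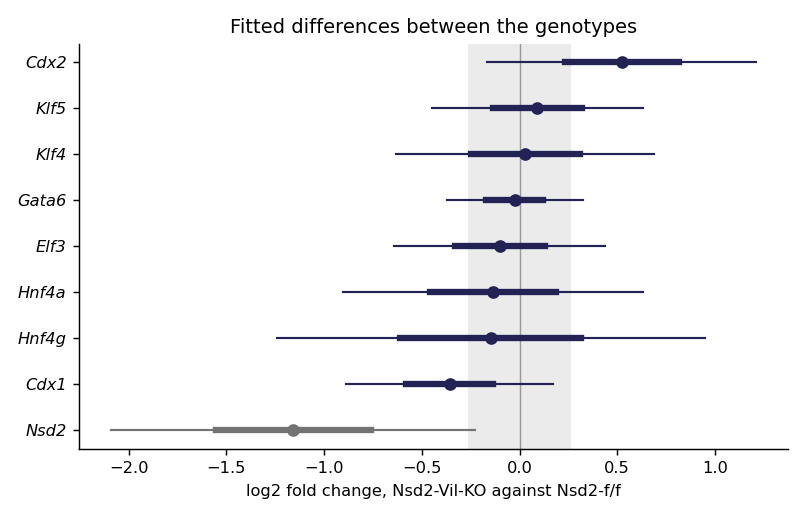
Log2 fold change of the 8 factors and of Nsd2, Nsd2 Vil-KO against Nsd2 f/f, from edgeR's quasi-likelihood fit over 14650 genes (n = 3 per genotype); points are estimates, thick bars 1 SE and thin bars 95% intervals, and the grey band marks fold changes within 1.2. All 8 factors' intervals include 0, and that of Nsd2 runs from -2.09 to -0.23.

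Gata6, the GATA factor of the colon (ENSMUSG00000005836, chromosome 18, 11052064 to 11085635, plus strand), was at 56.2, 60.0 and 56.7 CPM in Nsd2 f/f and at 58.9, 56.3 and 54.7 CPM in Nsd2 Vil-KO. All 6 libraries were within a ratio of 1.096 of one another, those that stood apart included. Gata6 had a log2 fold change of -0.02 (SE 0.15, 95% interval -0.37 to 0.32, edgeR adjusted p = 0.999), the narrowest interval of the 8. The coefficient of variation of its CPM over 6 libraries was 3.39%, beside 3.17% from counting error alone at 702 to 1208 reads a library and a median of 28.7% over all tested genes. By this measure Gata6 ranked 16 from the least variable of 14650 genes. The ranking depended on scaling: with size factors of the DESeq2 type the coefficient was 3.26%, and scaled to library size alone it was 13.9%, with a ratio of 1.43 between the extremes and rank 1878. 1010001N08Rik overlaps 93 bases of its exons (1.43%) on the opposite strand. Of its relatives, Gata4 was at 0.17 to 0.54 CPM and Gata5 at 0.15 to 1.13 CPM.

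The other members varied more. Elf3 and Klf5 had coefficients of variation of 14.1% and 14.2%, Cdx1 19.1%, Klf4 20.5%, Hnf4a 24.9%, Cdx2 33.6% and Hnf4g 34.2%.

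**Figure D4:**
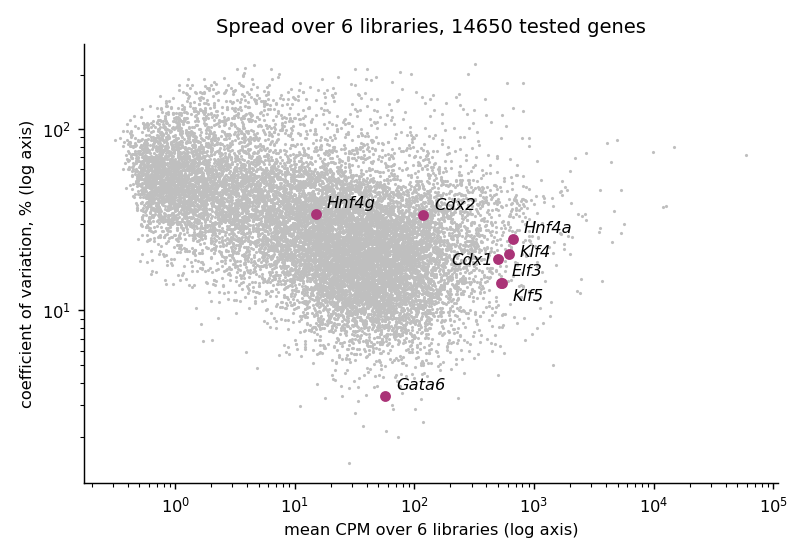
Coefficient of variation (%) of CPM over all 6 libraries against mean CPM for each of the 14650 tested genes in grey and the 8 factors in purple, both axes logarithmic. Gata6 lies at the lower edge at 3.39%, and the other 7 lie within the cloud between 14.1% and 34.2%.

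Across the 6 libraries the genes most like each member were sought by Pearson r of log2 CPM among the 9236 genes whose mean reached 10 CPM. For Cdx1 these were Gpr89, H2bc4 and Mecr (r = 0.998, 0.995 and 0.995), for Cdx2 Cdk18, Tuft1 and Pcgf2 (0.979, 0.975 and 0.965) and for Hnf4a Zbtb43 and Uaca (0.994 for both). For Hnf4g they were Atf6b, Rap1gap2 and Gtf2i (0.997, 0.996 and 0.995), of which Gtf2i was at 24.6 CPM in Nsd2 Vil-KO replicate 2 and at 60.1 CPM or more in the other libraries. For Klf4 they were Pdcd6ip, Yme1l1 and Eral1 (0.990, 0.984 and 0.979), and for Klf5 Gm21926, Tcim and Rras (0.990, 0.989 and 0.988). For Elf3 they were H2-Q2, Ggps1 and Lpar6 (0.953, 0.930 and 0.926). For Gata6 they were Mindy2, Elf3 and Trp53rka (0.958, 0.903 and 0.897), of which Elf3 is itself a member. The spread of Gata6 was close to counting error (3.39% beside 3.17%), so its pattern over the libraries holds little to be alike to. All values rest on 6 points that share libraries and scaling and are descriptions.

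Genes linked to the members were counted next, from lists of textbook targets and relatives. Among 39 tested epithelial transcription factors outside the 8, 0 passed the screening criterion, 18 were fitted higher and 21 lower, and the median log2 fold change was -0.06 against 0.00 over all tested genes. Pparg, a nuclear receptor of colonocytes, had 0.71 (95% interval -0.16 to 1.59), and Ppargc1a, a coactivator of mitochondrial genes, had -0.94 (95% interval -1.94 to 0.06). Without Nsd2 Vil-KO replicate 2 the value of Pparg was 0.19, and without Nsd2 f/f replicate 3 that of Ppargc1a was -0.28. Ovol2, an epithelial zinc finger factor, was at 20.02, 19.97 and 22.9 CPM in Nsd2 f/f and 16.9, 10.9 and 15.8 CPM in Nsd2 Vil-KO with no overlap, at a log2 fold change of -0.53 (95% interval -1.09 to 0.04), and at -0.36 without Nsd2 Vil-KO replicate 2.

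Within the Kruppel-like family, 11 genes besides Klf4 and Klf5 were tested, and 1 passed the criterion in each direction. Klf7, a factor best known in neurons and fat, was at 18.6, 17.3 and 20.2 CPM in Nsd2 f/f and at 23.1, 31.0 and 27.4 CPM in Nsd2 Vil-KO. Its groups did not overlap, and it was higher by 0.54 on the log2 scale (SE 0.20, edgeR adjusted p = 0.992). Klf2, a factor of endothelium and lymphocytes, was at 11.7, 4.73 and 6.22 CPM in Nsd2 f/f and at 3.71, 3.83 and 3.22 CPM in Nsd2 Vil-KO. Its groups did not overlap either, and its log2 fold change was -1.08 (SE 0.41, edgeR adjusted p = 0.992). Klf2 had -0.61 without Nsd2 f/f replicate 1, where it was highest, and no longer passed, nor did it without Nsd2 Vil-KO replicate 1 or 3. Over all runs with 1 library left out, the value of Klf2 stayed between -1.32 and -0.61. Klf7 did not pass without Nsd2 f/f replicate 1 (0.54) or 2 (0.49) or Nsd2 Vil-KO replicate 3 (0.53). Beside Klf2, the endothelial marker Pecam1 was also lower past the criterion (-1.33) and the endothelial marker Vwf was higher past it (1.00), out of 5 endothelial markers of which 2 could be tested. In Nsd2 f/f replicate 1, where Klf2 was highest, the leukocyte gene Ptprc (30.7 CPM) and the fibroblast markers (269.7 CPM in sum) were highest too. The other T cell markers peaked elsewhere. Cd3e, Cd3g, Cd8a and Cd4 did so in Nsd2 Vil-KO replicate 1, Trac in Nsd2 f/f replicate 2, and Cd3d, Cd2 and Trbc2 in Nsd2 f/f replicate 3. Markers of B and plasma cells summed to 143 CPM in Nsd2 f/f replicate 1 and to 572 CPM in Nsd2 Vil-KO replicate 1. The 5 endothelial markers summed to 5.90, 5.08 and 4.93 CPM in Nsd2 f/f and to 5.90, 5.33 and 7.15 CPM in Nsd2 Vil-KO. The part of these cells in the value of Klf2 was not tested. Klf11 had the largest positive value that did not pass, at 0.79 (95% interval -0.41 to 1.98), and 0.29 without Nsd2 Vil-KO replicate 2. Klf14 had 0 counts in all libraries.

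Genes dependent on CDX2 kept no common direction. Of 20 tested genes outside the 8, 9 were fitted higher and 11 lower and 0 passed, with a median log2 fold change of -0.08. Gucy2c, the guanylin receptor, was at 279.9, 291 and 278 CPM in Nsd2 f/f and at 315, 392 and 376 CPM in Nsd2 Vil-KO. The groups did not overlap, at a log2 fold change of 0.35 (SE 0.19, 95% interval -0.09 to 0.80). Furin, a proprotein convertase, had 0.59 (95% interval -0.11 to 1.28), and 0.21 without Nsd2 Vil-KO replicate 2, where it was highest at 180.1 CPM. Mep1a, a brush border protease, was at 289.8 CPM in Nsd2 f/f replicate 3 against 46.9 to 106 CPM in the other 5 libraries, and its log2 fold change of -0.81 became 0.76 in the 4 libraries without both that stood apart. Cdhr5, a brush border protocadherin, had -0.29 (95% interval -0.97 to 0.39), and -0.076 without Nsd2 f/f replicate 3.

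Of 28 tested genes that depend on HNF4, 17 were fitted higher and 11 lower and 1 passed, with a median of 0.12. That gene was Ttr, the transthyretin carrier of thyroid hormone and retinol, at 17.6, 18.8 and 49.0 CPM in Nsd2 f/f and 11.1, 10.4 and 11.0 CPM in Nsd2 Vil-KO. The groups did not overlap, and the log2 fold change was -1.39 (SE 0.42, edgeR adjusted p = 0.992). In the 4 libraries without both that stood apart it was -0.71 (edgeR adjusted p = 0.327). Apob, the lipoprotein backbone, was at 39.6, 34.7 and 144.9 CPM in Nsd2 f/f and 34.5, 33.3 and 32.9 CPM in Nsd2 Vil-KO. Its log2 fold change of -1.12 (95% interval -2.38 to 0.14) rested on Nsd2 f/f replicate 3, without which it was -0.14.

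Of 15 differentiation genes linked to KLF4, 5 were fitted higher and 10 lower and 0 passed, with a median of -0.41. The list summed to 22625 CPM in Nsd2 f/f replicate 3 and to 13652 to 16140 CPM in the other 5 libraries. Aqp8, a water channel of surface colonocytes, was at 223, 216 and 973 CPM in Nsd2 f/f and at 225, 27.9 and 182 CPM in Nsd2 Vil-KO, and had a log2 fold change of -1.70 (95% interval -3.74 to 0.35). Tff3, the goblet cell trefoil peptide, was at 756, 724 and 1087 CPM in Nsd2 f/f and at 433, 789 and 458 CPM in Nsd2 Vil-KO (log2 fold change -0.61, 95% interval -1.37 to 0.15). Both were highest in Nsd2 f/f replicate 3, without which the values were -0.60 for Aqp8 and -0.40 for Tff3. Ceacam1 and Alpi, of surface cells, had 0.12 and 0.31.

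Of 15 crypt proliferation genes linked to KLF5, 7 were fitted higher and 8 lower and 0 passed, with a median of 0.00. Their summed level separated libraries and not genotypes: it was 397 CPM in Nsd2 f/f replicate 3 and 598 CPM in Nsd2 Vil-KO replicate 2 and between 1136 and 1395 CPM in the other 4. Ccnd1 and Ccnb1, of the cell cycle, had log2 fold changes of 0.54 and 0.44, and Ascl2 and Myc, of stem and crypt cells, -0.68 and -0.32, all with 95% intervals that include 0. Left-out runs ranged from 0.08 to 0.95 for Ccnd1, from 0.027 to 0.75 for Ccnb1 and from -1.18 to -0.14 for Ascl2. The 2 libraries that stood apart were thus also the low ones for the summed crypt genes.

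**Figure D5:**
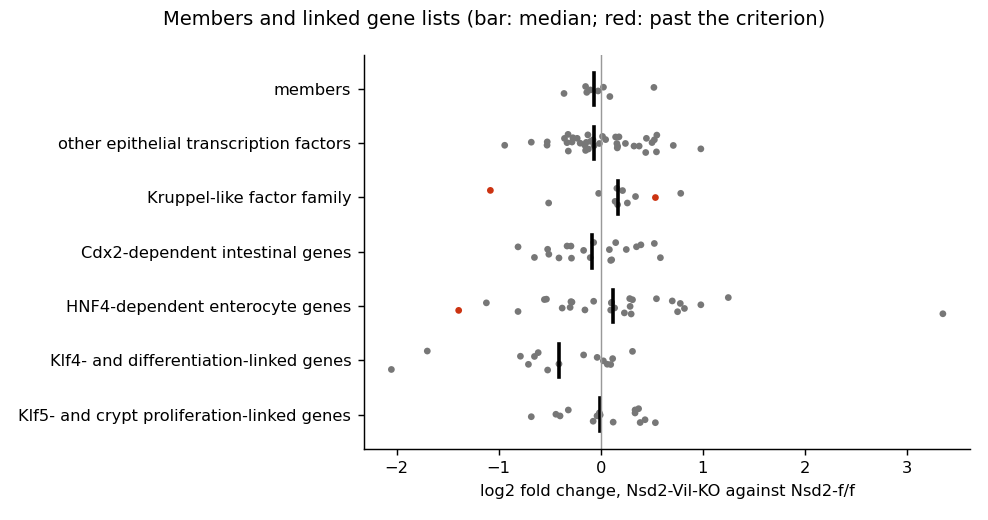
Log2 fold change, Nsd2 Vil-KO against Nsd2 f/f, of the 8 factors and of each tested gene in 6 linked lists with members left out; 1 point per gene, vertical bar for the list's median, red for genes past the screening criterion (Klf7 and Klf2 in the Kruppel-like family and Ttr among HNF4-dependent genes). Medians lie between -0.41 for KLF4-linked genes and 0.17 for the Kruppel-like family.

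Genes of other gut regions tested whether markers of stomach, squamous or small intestinal lining appeared. Of 27 listed, 7 had no counts at all and 8 passed the filter. Of these 8, 5 were fitted higher and 3 lower and 1 passed the criterion, with a median log2 fold change of 0.33. Atp4a and Pdx1, at no more than 1.56 CPM in any library, had 0.36 and 0.31 with 95% intervals that include 0. The list summed to 27.2 to 38.4 CPM in Nsd2 f/f and to 27.7 to 40.1 CPM in Nsd2 Vil-KO. Krt13, a keratin of squamous lining, was at 0.94, 0.53 and 0.08 CPM in Nsd2 f/f and at 2.63, 1.33 and 2.04 CPM in Nsd2 Vil-KO, with no overlap and a log2 fold change of 1.83 (SE 0.64, edgeR adjusted p = 0.992). The value of 0.08 CPM in Nsd2 f/f replicate 3 was below the limit of 3 counts there. Krt13 no longer passed without Nsd2 Vil-KO replicate 1 (1.59) or 3 (1.82) or Nsd2 f/f replicate 2 (1.80). Squamous epithelium markers summed to 4.85 to 20.7 CPM in Nsd2 f/f and 20.5 to 28.3 CPM in Nsd2 Vil-KO, and their part in the result was not tested. That list contains Krt13 and Sprr1a themselves, and of its 4 tested genes 3 were fitted higher and 1 lower (median 1.21). Its highest sum, in Nsd2 Vil-KO replicate 2, held Dsg3 at 17.2 CPM, beside 5.05 CPM or less in the other libraries. Sprr1a, also squamous, had 0.59, whereas Krt14, a further squamous keratin, went the other way with -0.88. Of the small intestinal genes, Lyz1 and Fabp6 had -1.03 and -0.49 and Sis had 0.40. The 95% intervals of Sprr1a, Krt14, Lyz1, Fabp6 and Sis include 0. With 1 library left out the values ran from 0.20 to 0.87 for Sprr1a, from -2.63 to -0.55 for Lyz1 and from -0.95 to 0.27 for Fabp6.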

How the data were processed

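RNA-seq of colon IECs had been deposited as whole-number counts of reads per gene in 6 libraries, 3 per genotype, without normalisation. Per the methods and labels, the authors trimmed reads and aligned them with HISAT2 to GRCm38 (mm10). The counting program and its strand setting are not given in the sources used here, and labels and methods name different library kits. Groups came from the genotype labels. Counts were analysed with edgeR 4.0.16 in R 4.3.3: filterByExpr, TMM factors and the robust quasi-likelihood test over 14650 genes, with Benjamini-Hochberg adjustment over all of them. The design did not name the form of the quasi-likelihood fit, and the current form was taken, in place of the earlier one, after the counts of genes under both had been seen (482 and 434 past the screening criterion). CPM used TMM-scaled totals, and levels per kb used union exon lengths of GENCODE. Exact permutation tests over 3 against 3 libraries were added. Named genes were the members, their paralogs, the 2 genes per list and direction with the smallest p and a mean of at least 1 CPM, and the 3 genes most like each member. A few genes that this rule names are not reported here. The members and lists were chosen with earlier results of these data known. Alternatives used DESeq2 1.42.0, limma 3.58.1, other scalings and filters, a replicate block and samples left out. The fit was tested on simulated data. The authors' ChIP-seq data were not used here.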

Additional observations from a re-analysis of the deposited data

How the results depend on the processing

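The call of no member past the screening criterion was the same under other scalings and filters, under DESeq2, both limma fits, the fit with Xist as covariate, the earlier form of the quasi-likelihood fit (added after the data were seen) and in the 4 libraries without both that stood apart, and it changed in 1 left-out run: the count of higher members ranged from 0 to 1, the 1 being Cdx2 without Nsd2 Vil-KO replicate 3. The count of all genes past the criterion was 482, and it was 861 without a filter on low counts, 1440 with limma-voom, 1145 with Xist as covariate, 1646 in the 4 libraries (2 against 2) and from 323 to 769 with 1 library left out, highest without Nsd2 Vil-KO replicate 2. With the earlier form of the fit it was 434. The cause of these shifts was not tested.

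The replicate block gave 303 genes past the criterion and ended the calls of Klf7 (0.53) and Klf2 (-0.98), and it changed no call of a member. Deviations of samples with the same number correlated at 0.32, -0.35 and -0.11, so the numbers were not taken to pair the samples.

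Signs turned as follows on the log2 scale. With limma-voom: Hnf4a 0.19, Hnf4g 0.24, Mep1a 0.49 and Fabp6 0.23. With library size only: Gata6 0.027 and Klf16 0.022. In the 4 libraries: Hnf4a 0.28, Hnf4g 0.30, Klf16 0.0037, Mep1a 0.76, Cdhr5 0.077, Fabp6 0.17, Gata5 0.10, the ratio of Klf4 to Klf5 0.24 and that of Hnf4g to Hnf4a 0.022, and the members' median was 0.15. With 1 library left out the ranges were -0.34 to 0.12 for Hnf4a, -0.41 to 0.25 for Hnf4g, -0.16 to 0.28 for Klf4, -0.062 to 0.21 for Klf5, -0.25 to 0.00029 for Elf3, -0.052 to 0.0083 for Gata6, -0.20 to 0.13 for the ratio of Klf4 to Klf5, -0.36 to 0.12 for that of Hnf4g to Hnf4a, -1.06 to 0.96 for Alpi, -0.30 to 0.23 for Klf16, -0.72 to 0.069 for Myc, -0.45 to 0.41 for Gata5, -1.21 to 0.56 for Mep1a and -0.95 to 0.27 for Fabp6. Cdx1 stayed below 0 (-0.44 to -0.11) and Cdx2 above 0 (0.25 to 0.79) under all alternatives run. Fits with 1 library left out of a genotype rest on 2 against 3.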
